A study of Homo sapiens with 23 samples.

Results

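The Notch genes of human thalamus organoids (ThOs) were followed across 12 RNA-seq libraries: the receptors NOTCH1, NOTCH2 and NOTCH3, the ligands DLL1, DLL3 and JAG1, and the target-family genes HES1, HES5, HES6 and HEY1. They were picked by symbol from a list of 10 genes, and 7 of the 10 are among the 9497 genes of each table. DLL1, DLL3 and HES5 are not listed in the tables and were not analysed here, and every gene that is listed has a value of 11 or more in every library. ThOs are three-dimensional cultures steered towards thalamic tissue. All were grown from the H1 human embryonic stem cell line, in medium with the inhibitors LDN-193189 and SB431542, then with BMP7 and the MEK inhibitor PD325901. Libraries labelled WT came from unedited H1 cells. Those labelled KO came from H1 cells edited by CRISPR/Cas9 in c-JUN, which codes for one of the AP-1 proteins, and those labelled OE from knockout cells that carried c-JUN again on a doxycycline-driven tet-on construct. Each was collected at day 25 and day 30, giving 6 groups of 2 libraries, each library made from 3 pooled ThOs. The labels do not say which knockout line each KO or OE library came from, nor whether the 2 libraries of a group were separate cultures, so the p-values measure the spread between these libraries only.

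Notch signalling passes between touching cells. A ligand of the Delta or Jagged family on one cell pulls on a Notch receptor on its neighbour, the receptor is cut by ADAM proteases and then by gamma-secretase, and the freed intracellular part joins the DNA-binding protein RBPJ and Mastermind coactivators to switch on genes of the HES and HEY families. In the developing brain HES1, HES5 and HEY1 repress proneural genes and keep neural progenitors from differentiating, while newborn neurons present ligand to the progenitors beside them. HES6 is the odd member of the family: it is known to oppose HES1 and to rise with proneural factors in cells that are leaving the progenitor state.

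The promoters of HES1, HES5 and HES6 are printed here because HES6 was called in the results below and HES1, the classic RBPJ target, was not. The 3 stretches are the 250 bases before the RefSeq start site (GRCh38.p14), read 5′ to 3′ along the gene, with the RBPJ core TGGGAA, on either strand, in capitals.
HES1 (chr3:194135898-194136147, plus strand): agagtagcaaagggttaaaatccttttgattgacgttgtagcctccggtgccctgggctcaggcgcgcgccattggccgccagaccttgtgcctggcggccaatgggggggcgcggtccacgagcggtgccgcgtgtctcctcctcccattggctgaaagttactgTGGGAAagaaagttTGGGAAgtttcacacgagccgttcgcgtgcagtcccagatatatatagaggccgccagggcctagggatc
HES5 (chr1:2530264-2530513, minus strand): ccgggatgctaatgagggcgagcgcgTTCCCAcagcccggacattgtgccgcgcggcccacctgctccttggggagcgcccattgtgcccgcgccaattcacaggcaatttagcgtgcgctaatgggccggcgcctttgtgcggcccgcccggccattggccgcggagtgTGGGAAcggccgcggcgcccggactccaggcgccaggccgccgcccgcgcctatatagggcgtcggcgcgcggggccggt
HES6 (chr2:238240039-238240288, minus strand): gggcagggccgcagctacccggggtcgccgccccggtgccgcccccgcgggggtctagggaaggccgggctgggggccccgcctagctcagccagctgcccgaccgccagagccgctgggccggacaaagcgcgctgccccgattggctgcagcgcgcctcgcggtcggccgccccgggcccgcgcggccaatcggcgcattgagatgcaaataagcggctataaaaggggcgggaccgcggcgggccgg
HES1 held the core at positions -84 and -70 from its start site, both on the gene's own strand. HES5 held it at -224, on the opposite strand, and at -80, while the HES6 stretch held none. The HES6 stretch lies within the gene span listed with the values, which reaches 238240662. The RefSeq start of NOTCH2, at 120069662, likewise lies within its listed span, which reaches 120100779. Bases before these further starts were not searched. Over windows of 300 bases, from 250 before to 50 after the start, 7 of the 10 Notch genes had an entry, and the core was found in HES1 and HES5 only. It was found in 24.3% of all 27305 promoter windows, and at least 2 copies in 3.81%. The HES and HEY class C site, CACGNG, was found in 4 of the 7 windows (NOTCH2, NOTCH3, JAG1 and HES1) and in 30.4% of all windows. The HES N-box, CACNAG, which shares the letters CACGAG with the class C site, was found in NOTCH1, NOTCH2, NOTCH3 and HES1 and in 38% of all windows. The AP-1 site TGANTCA, where c-JUN dimers bind, was in none of the 7 windows and in 7.76% of all windows. Both strands were searched in each case, and a match is a run of letters and not evidence of binding.

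Some facts of the libraries bear on every value that follows. The values are the authors' normalized scores, whole numbers with a median of 106 in each library and of unknown depth. JUN itself went against the KO label: it was 128 to 162 in the 4 libraries labelled WT, 196 to 353 in the 4 labelled KO and 202 to 362 in the 4 labelled OE. On a log2 scale JUN was 0.77 higher in KO than in WT (SE 0.23, limma adjusted p = 0.20). Between OE and KO its difference was -0.033 (SE 0.23, limma adjusted p = 0.95), so these values show no re-expression. The paper reports null c-JUN mRNA in knockout cells by RT-qPCR, in neural progenitor and cerebral organoid cultures, unlike the values here. It also reports, by western blot, no c-JUN protein in the knockout lines and c-JUN protein induced there by doxycycline. In ThOs of day 25 it describes chromatin at c-JUN as less accessible in KO than in WT and OE. Total JUN RNA cannot show an edited reading frame, so KO and OE below name the labels. The 2 libraries labelled KO also lay far apart at both days: 17.4% of all genes differed by 2-fold or more between them at day 25 and 21.5% at day 30, against 1.75% to 4.45% in the other 4 groups. KO replicate 2 had the lowest median rank correlation with the other libraries at day 30 (0.745) and at day 25 (0.83). KO replicate 1 of day 25 was next (0.854), also below every WT and OE library. Results of the listed Notch genes were therefore also computed without KO replicate 2 of both days. That leaves 1 KO library per day, so no spread within KO enters those fits. Calls of the pathway and marker genes named below rest on all libraries and were not recomputed in this way.

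Differences are given on the scale of log2(value + 1), with the limma standard error (SE), and a gene was called when its limma p, adjusted by Benjamini-Hochberg over all 9497 genes, was under 0.05 and its change at least 2-fold. Averaged over both days, HES6 and NOTCH3 were called higher in OE than in KO, HES6 was called higher in OE than in WT, and none of the 7 Notch genes was called between KO and WT. NOTCH1 and JAG1 had larger OE over KO differences than NOTCH3 but scattered more, and did not pass. NOTCH2, HES1 and HEY1 were not called in any comparison. These are bulk libraries, so fewer cells of a type and less RNA per cell cannot be told apart.

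**Figure D1:**
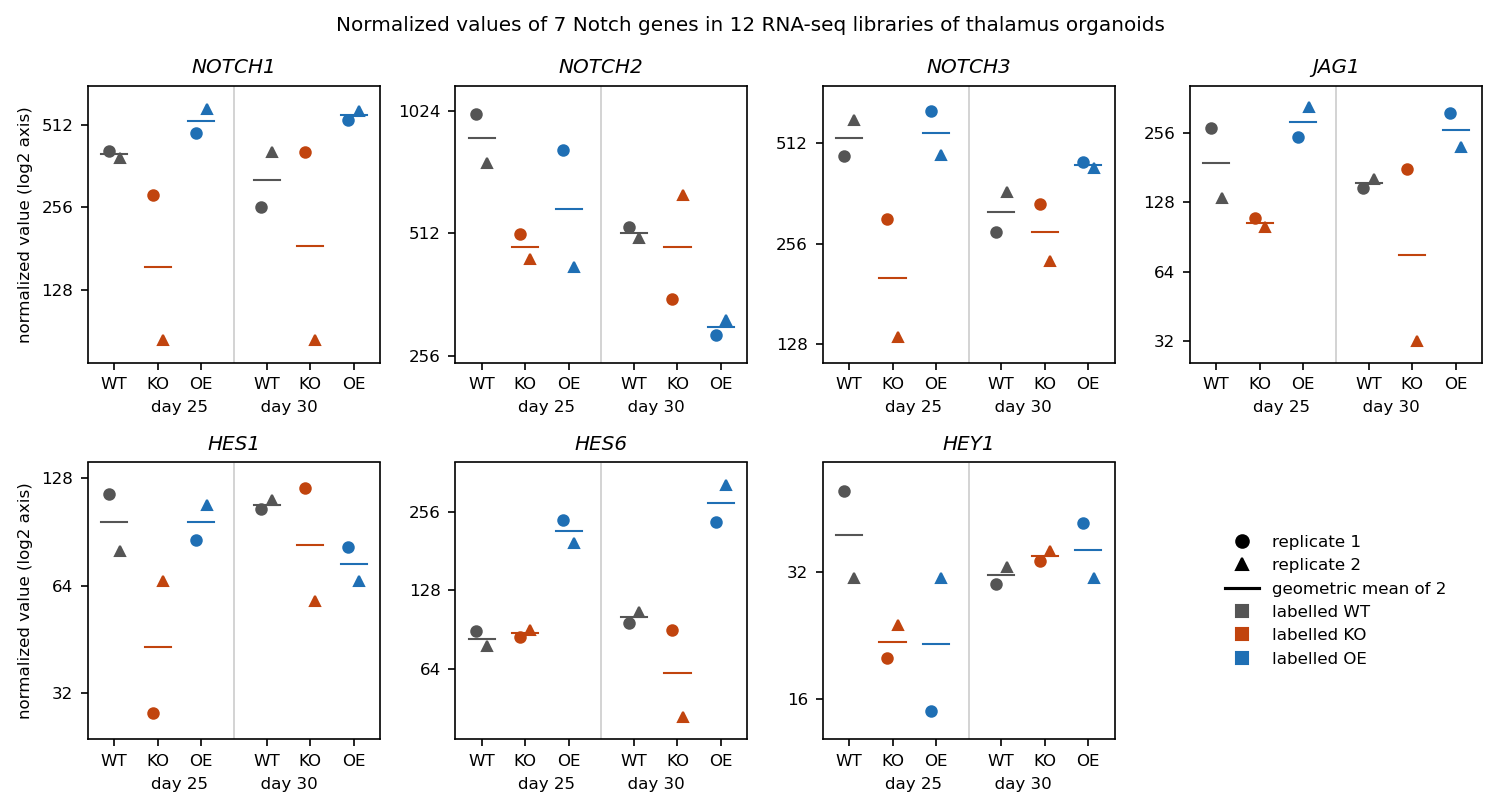
Normalized value (log2 axis) of the 7 listed Notch genes in each of the 12 libraries, by labelled genotype and day, with circles for replicate 1, triangles for replicate 2 and a bar at their geometric mean. The 4 OE values of HES6 (195 to 324) lie above all others, while the 2 KO values of NOTCH1 on each day lie far apart (285 and 84, then 408 and 84).

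NOTCH1, the receptor most studied in neural progenitors (GRCh38 chromosome 9, 136494433 to 136546048), had values of 412 and 388 in the WT libraries of day 25 and 256 and 406 in those of day 30. In KO it was 285 and 84 at day 25 and 408 and 84 at day 30, and in OE 480 and 586, then 532 and 578. All 4 OE values exceeded every WT and KO value, and the 2 lowest values of the series were both KO replicate 2, whereas KO replicate 1 at day 30 reached the WT level. Over both days NOTCH1 was lower in KO than in WT (log2 difference -1.08, SE 0.46, limma adjusted p = 0.30). It was 1.67 higher in OE than in KO (SE 0.46, limma adjusted p = 0.070), or 3.19-fold, and 0.59 higher in OE than in WT (SE 0.46, adjusted p = 0.85). Without both KO replicate 2 libraries, the NOTCH1 difference over both days was -0.074 between KO and WT and 0.67 between OE and KO (limma adjusted p = 0.068). Without KO replicate 2 of day 30 alone these were -0.51 and 1.11, and the day 30 difference between KO and WT changed from -0.79 to 0.34.

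NOTCH2, a receptor of radial glia (chromosome 1, 119911553 to 120100779), followed another course. It was 1008 and 763 in WT at day 25 and 530 and 499 at day 30. In KO it was 509 and 442, then 352 and 637, and in OE 820 and 422, then 288 and 313. The highest value was in WT and the next in OE (820), both at day 25, and the lowest 2 values were the day 30 OE libraries. NOTCH2 was the receptor with the clearest shift over time, with log2 differences of day 30 from day 25 of -0.77 in WT, -0.97 in OE and -0.0023 in KO. Their mean was -0.58 (SE 0.19, unadjusted p = 0.0098 by limma, adjusted p = 0.33), which was not called. In KO it was lower than in WT at day 25 (log2 difference -0.89, SE 0.32, limma adjusted p = 0.28) and close to it at day 30 (-0.12, SE 0.32). The value is uncertain in one respect: NOTCH2 shares near-identical sequence with the human-specific NOTCH2NL copies, which promote progenitor expansion, and how reads were divided between them is not given in the sources used here. NOTCH2NLA, which is listed separately, ranged over 60 to 196 in WT, 31 to 70 in KO and 42 to 99 in OE, and its log2 difference between KO and WT over both days was -1.14 (SE 0.29, limma adjusted p = 0.18).

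NOTCH3, a receptor found in neural progenitors and in vascular mural cells (chromosome 19, 15159038 to 15200995), was 471 and 600 in WT at day 25 and 278 and 367 at day 30. The KO values were 304 and 134 at day 25 and 338 and 228 at day 30, and the OE values 640 and 472, then 449 and 431. Every OE value lay above every KO value, and 1 of the 2 WT values of day 30 fell within the KO range. Averaged over days NOTCH3 was 1.05 higher in OE than in KO (SE 0.25, limma adjusted p = 0.044), a 2.07-fold difference that was called. The estimate was 1.44 at day 25 (SE 0.35, limma adjusted p = 0.079) and 0.66 at day 30 (SE 0.35, adjusted p = 0.49), and the difference between these days was not called (-0.78, SE 0.50, adjusted p = 0.85). Against WT, NOTCH3 in KO was lower at day 25 (-1.39, SE 0.35, limma adjusted p = 0.18) and near it at day 30 (-0.20, SE 0.35). Without KO replicate 2 of day 25 the day 25 difference of NOTCH3 was -0.80, and without replicate 1 it was -1.98 and was called (limma adjusted p = 0.037). The change of the KO difference between days had the lowest unadjusted p among the Notch genes (1.19, SE 0.50, unadjusted p = 0.034 and adjusted p = 0.80 by limma). The call of NOTCH3 between OE and KO was lost without both KO replicate 2 libraries, where the difference was 0.62 (limma adjusted p = 0.073), and in 6 of the 8 fits that left out 1 library (adjusted p from 0.069 to 0.17 in those 6).

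JAG1, the only listed ligand of the 3 (chromosome 20, 10637684 to 10673999), activates receptors on neighbouring cells. It was 268 and 134 in WT at day 25 and 148 and 162 at day 30. KO gave 109 and 100 at day 25, then 178 and 32, and OE gave 246 and 330, then 312 and 222. The OE values were above all KO values, the WT values overlapped the lower part of the OE range, and the single value of 32 in KO replicate 2 of day 30 was the lowest of the series. Averaged over days JAG1 was 1.61 higher in OE than in KO (SE 0.43, 3.05-fold, limma adjusted p = 0.066) and lower in KO than in WT (log2 difference -0.94, SE 0.43, adjusted p = 0.33), and neither was called. Without KO replicate 2 of day 30 the JAG1 differences over both days were 1.00 for OE over KO and -0.33 for KO against WT. Without KO replicate 1 of day 30 they were 2.22 and -1.55, and both were called (limma adjusted p = 0.00081 and 0.0071).

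HES1, the classic Notch target whose oscillating protein represses proneural genes (chromosome 3, 194136148 to 194138732), was 116 and 80 in WT at day 25 and 105 and 111 at day 30. It was 28 and 66 in KO at day 25 and 120 and 58 at day 30, and 86 and 108, then 82 and 66 in OE. Both KO values of day 25 lay below WT and OE of that day, whereas at day 30 the KO values stood on either side of WT and both OE values below it. At day 25 HES1 was lower in KO than in WT (log2 difference -1.14, SE 0.44, limma adjusted p = 0.29) and 1.14 higher in OE than in KO (SE 0.44, adjusted p = 0.21). Without KO replicate 1 of day 25 these differences of HES1 were -0.54 and 0.54, and without KO replicate 2 of that day -1.75 and 1.75. At day 30 the OE over KO difference was -0.18 (SE 0.44). The 2 KO libraries did not deviate in one direction: replicate 2 was the higher by 1.21 on the log2 scale at day 25 and the lower at day 30, by -1.04.

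HES6 (chromosome 2, 238238267 to 238240662) gave the firmest difference among the Notch genes. It was 89 and 78 in WT at day 25 and 96 and 106 at day 30. KO gave 85 and 90, then 90 and 42, and OE 237 and 195, then 234 and 324. Thus the 4 OE values were all higher than the 8 values of WT and KO, which overlapped each other. The mean of the OE values was 247.5 ± 54.5 (SD, n = 4). The WT mean was 92.2 ± 11.8 (SD, n = 4), and that of KO was 76.8 ± 23.3 (SD, n = 4). Over both days HES6 was 1.72 higher in OE than in KO (SE 0.24, 3.28-fold, limma adjusted p = 0.0085) and 1.40 higher in OE than in WT (SE 0.24, 2.64-fold, adjusted p = 0.049), and the difference between KO and WT was -0.32 (SE 0.24, 95% interval -0.84 to 0.21, adjusted p = 0.53). The OE over KO difference was 1.29 at day 25 (SE 0.34, limma adjusted p = 0.096) and 2.14 at day 30 (SE 0.34, adjusted p = 0.050, just above the threshold and not called). These days did not differ in a called way (0.86, SE 0.48, adjusted p = 0.85). The OE over WT differences were 1.36 and 1.44.

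HES6 was 1.47 higher in OE than in KO without both KO replicate 2 libraries, a fit with 1 KO library per day. Among the fits without 1 library, it lost the call only without OE replicate 2 of day 30, where the difference was 1.60 (limma adjusted p = 0.051). The call of OE over WT was less firm, since each of the 8 fits without 1 library lost it (differences from 1.28 to 1.52, limma adjusted p from 0.082 to 0.33).

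HEY1, which forms dimers with HES proteins on the same sites and represses like them, had the lowest spread of the 7 genes. Its values were 50 and 31 in WT at day 25, 30 and 33 at day 30, 20 and 24, then 34 and 36 in KO, 15 and 31 in OE at day 25, and 42 and 31 at day 30. KO lay below WT at day 25 and just above it at day 30, and OE overlapped KO throughout. The OE over KO difference over both days was 0.013 (SE 0.29, 95% interval -0.63 to 0.65, limma adjusted p = 0.99).

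**Figure D2:**
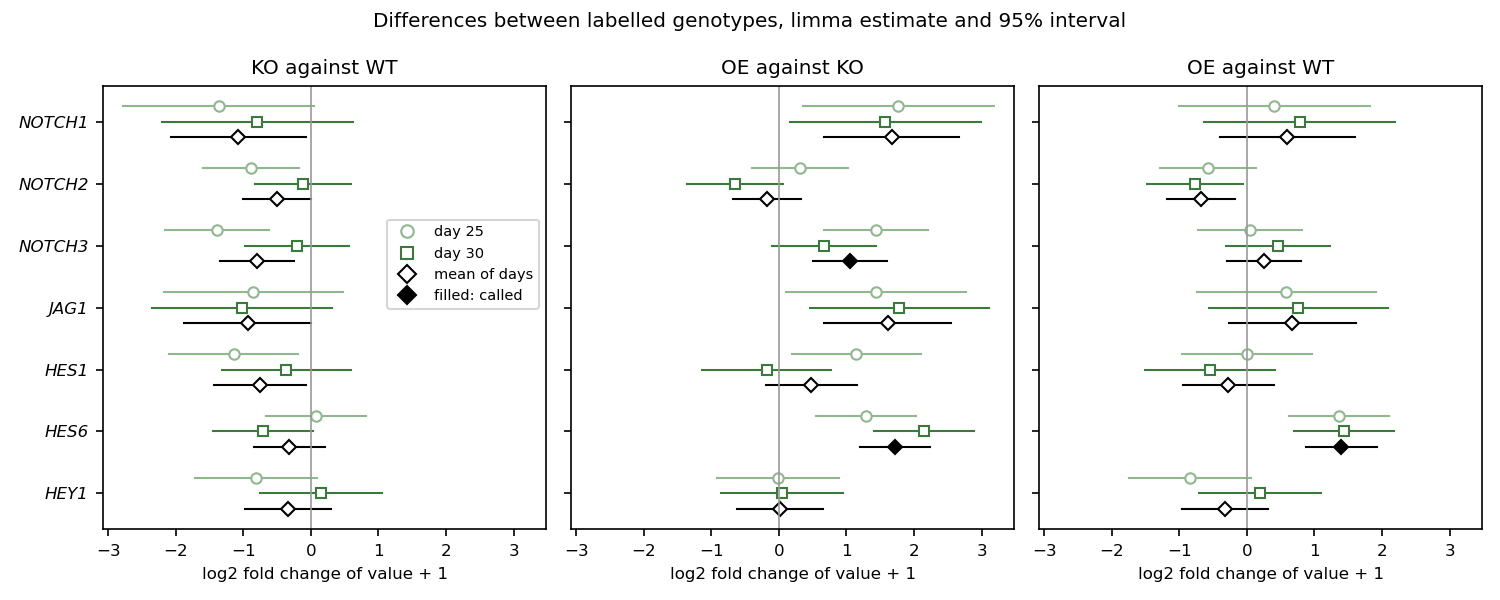
Log2 fold change of value + 1 for each listed Notch gene for the 3 pairs of genotypes, at day 25 (circles), day 30 (squares) and as the mean of both days (diamonds), with 95% limma intervals and filled symbols for called differences. Filled symbols appear for NOTCH3 (1.05) and HES6 (1.72) in OE against KO and for HES6 (1.40) in OE against WT.

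The 7 genes can be read against all genes. They were chosen with earlier results of these data known, and some varied together over the 12 libraries. Pearson r was 0.86 between NOTCH1 and NOTCH3 and 0.86 between NOTCH1 and JAG1. The shares of all genes below are therefore a scale and not a test. Between KO and WT over both days, 0 of the 7 were called, against 0.0211% of all genes. All 7 differences were negative, as were 52.2% of those of all genes, but in none did the 4 KO values lie wholly below the 4 WT values, against 3.14% of all genes. At an unadjusted p under 0.05, 3 of the 7 were lower in KO (NOTCH1, NOTCH3 and HES1), against 8.16% of all genes. At day 25 the 3 were NOTCH2, NOTCH3 and HES1, against 7.39%, and at day 30 there was none. Between OE and KO over both days, 2 of the 7 were called higher, against 1.05% of all genes, and 4 of the 7 had all OE values above all KO values (NOTCH1, NOTCH3, JAG1 and HES6), against 5.17%. By unadjusted p at single days, 5 of the 7 were higher in OE than in KO at day 25 (all but NOTCH2 and HEY1), against 9.31%, and 3 at day 30 (NOTCH1, JAG1 and HES6), against 5.9%. Between OE and WT over both days, 1 of the 7 was called higher (HES6), against 0.0421%. NOTCH1 and HES6 did not overlap WT on the higher side, against 4.13% of all genes, and none of the 7 on the lower side, against 4.34%. The comparisons of KO with WT and of OE with KO share the KO libraries, so the lower values of the first and the higher values of the second are not separate observations. No Notch gene was called between the days in any genotype. At an unadjusted p under 0.05, NOTCH2 alone passed between the days in WT, in OE and in the mean of genotypes, lower at day 30 each time, and none in KO. Of all genes, 2.11%, 1.17%, 5.54% and 5.84% passed on the lower side in WT, in OE, in the mean and in KO.

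The scatter of the KO libraries was itself uneven among the Notch genes. Replicate 2 differed from replicate 1 in KO by -1.75 at day 25 and -2.27 at day 30 for NOTCH1 on the log2 scale, and by -2.44 at day 30 for JAG1. For NOTCH3 it was -1.18 at day 25, and for HES6 -1.08 at day 30. On the log2(value + 1) scale, 3 of the 7 genes were at least 2-fold apart between the KO libraries at day 25 and 4 at day 30, while 1 was in OE at day 25 (HEY1) and none in the other 3 groups, where JAG1 in WT at day 25 (268 and 134) came closest, with -0.99. HEY1 was the least affected in KO, with 0.25 and 0.080. Over the 12 libraries the standard deviation of NOTCH1 exceeded that of 98.9% of all genes, that of JAG1 98.3% and that of HES6 97.3%. For NOTCH3, HES1 and NOTCH2 these shares were 88.3%, 84.4% and 82%, and for HEY1 65.2%.

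**Figure D3:**
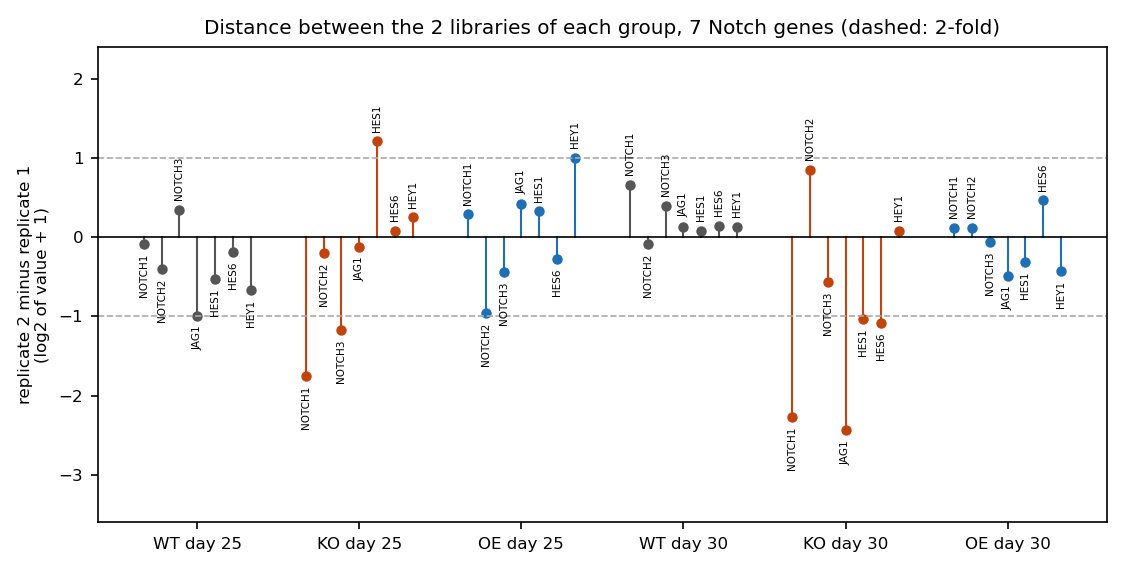
Replicate 2 minus replicate 1 (log2 of value + 1) for each of the 7 Notch genes in each of the 6 groups, with dashed lines at a 2-fold distance. The long bars below the lower line belong to KO: NOTCH1 at both days (-1.75 and -2.27) and JAG1 at day 30 (-2.44).

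The genes whose pattern was closest to each Notch gene were taken as the 3 with the smallest root mean square difference of centred log2 values over the 12 libraries, for members whose standard deviation was at least 0.5. For NOTCH1 they were BAZ1A, a chromatin remodelling subunit (0.20), ZEB2, a transcription factor (0.22), and MKI67, the proliferation marker Ki-67 (0.26), against a median of 0.98 over all genes. For NOTCH3 they were CDC45, a replication helicase factor (0.20), NECTIN1, an adhesion molecule (0.24), and STARD9, a kinesin (0.25). JAG1 was nearest to KNL1, a kinetochore protein (0.22), TET1, a DNA demethylase (0.30), and CASP8AP2 (0.32). NOTCH2 was nearest to NBPF14 (0.20), ADGRL3, a latrophilin receptor (0.24), and NBPF10 (0.25), and the NBPF genes are themselves near-identical copies whose values are as uncertain. HES1 was nearest to ERO1A, DUSP7 and MAX (0.25 to 0.27). HES6 had larger distances, with 0.34 for the histone gene H2BS1, 0.35 for TP53I11 and 0.36 for the histone gene H3C14. The median over all genes also differed by member, with 0.87 for HES6, 0.65 for HES1 and 0.94 for JAG1. These distances are descriptions over libraries that include both KO replicate 2 libraries.

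Other genes of the pathway were taken from the lists used, and 57 of these 84 are in the tables. None was called between KO and WT or between OE and WT in the means over days. In OE against KO over both days 1 was called higher, TLE3, a Groucho corepressor recruited by HES proteins (log2 difference 1.17, SE 0.22, limma adjusted p = 0.023). One was called lower, CNTN1, a neuronal adhesion molecule reported as a noncanonical Notch ligand (log2 difference -1.71, SE 0.27, adjusted p = 0.013). TLE3 was 80 to 169 in KO and 180 to 280 in OE, and CNTN1 was 170 to 532 in KO and 100 to 112 in OE, so neither overlapped. In the same comparison 100 of all 9497 genes were called higher and 111 lower. HDAC2, a histone deacetylase of these repressor complexes, was called at day 25 (2.14-fold, limma adjusted p = 0.044), with 342 and 272 in KO and 619 and 689 in OE. Over both days its difference fell short of 2-fold (1.68-fold, adjusted p = 0.017). At an unadjusted p under 0.05, 11 of the 57 were higher in OE than in KO and 7 lower, or 19.3% and 12.3%, against 11.5% and 10.7% of all genes. The median difference of the 57 was 0.060, against 0.015 over all genes, and between KO and WT it was -0.11 against -0.022.

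By role, the enzymes that cut the receptor (FURIN, ADAM10, ADAM17 and the gamma-secretase subunits) were all 9 listed and none was called in KO against WT or in OE against KO. The same held for the 11 listed of 12 genes of the RBPJ and Mastermind complex, for the 5 of 11 that glycosylate the receptor, for the 6 of 8 of ligand endocytosis and for the 13 of 15 of receptor trafficking and turnover. Of the 7 listed of 11 other receptors and ligands, CNTN1 was the one called. Of the other HES, HEY and target genes, 3 of 13 are listed (HES4, SOX9 and CCND1), and none was called. Among corepressors, 16 of 20 are listed, with TLE3 and HDAC2 as described. Of the proneural and early neuron factors, which HES proteins repress, 16 of 24 are listed. One was called in OE against KO over both days: NHLH1, a factor of newborn neurons, was higher by 1.69 (SE 0.39, limma adjusted p = 0.042), with 16 to 86 in KO and 82 to 168 in OE. The median of this list was 0.25, against 0.015 over all genes.

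**Figure D4:**
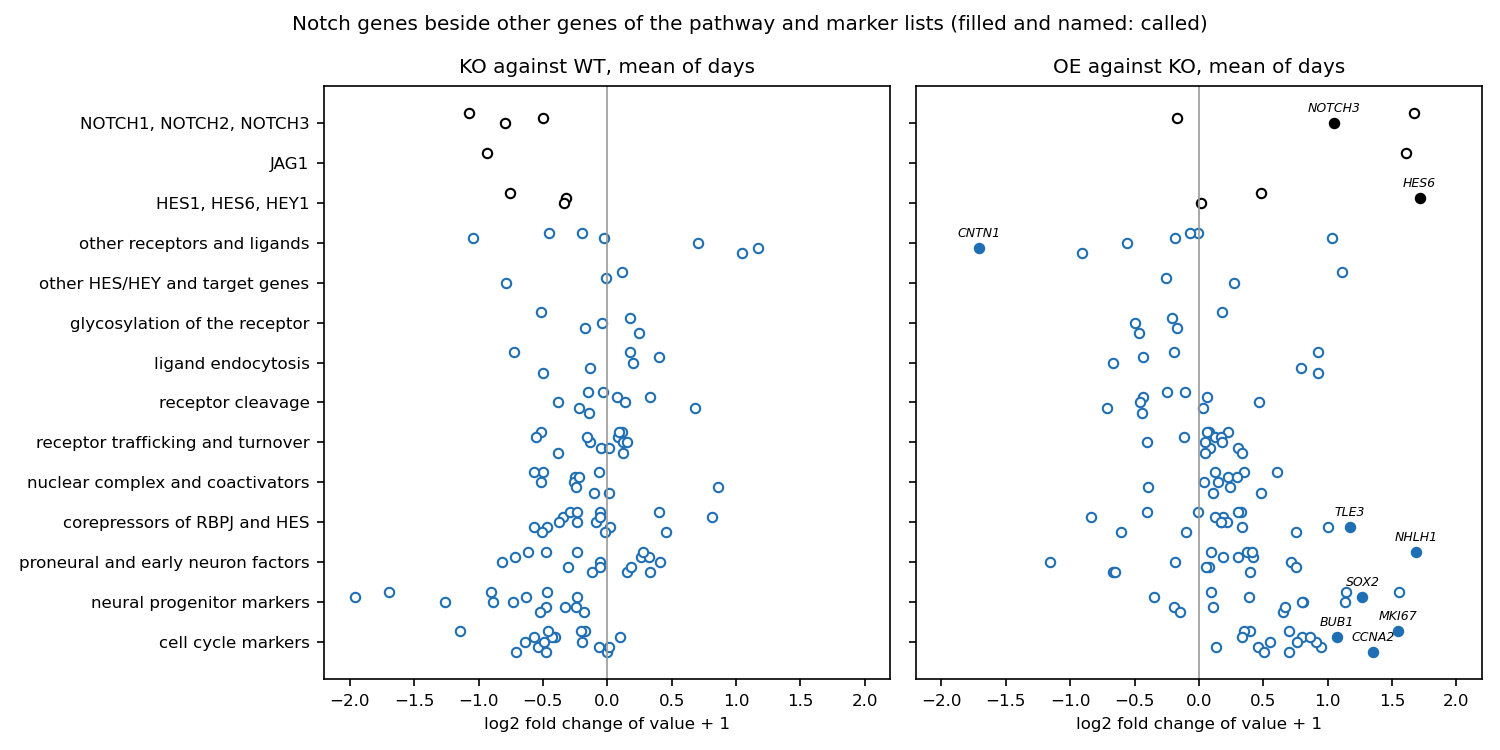
Log2 fold change of value + 1 over both days for the listed Notch genes (black) and for genes of 11 pathway and marker lists (blue), in KO against WT and OE against KO, with filled and named points for called genes. Nothing is filled on the KO against WT side, and HES6, NOTCH3, TLE3, NHLH1, SOX2, MKI67, CCNA2, BUB1 (higher) and CNTN1 (lower) are filled in OE against KO.

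Markers of dividing cells and progenitors, in which Notch receptors are expressed, also had lower summed values in KO than in WT at day 25. Of 18 cell cycle markers 17 are listed, and their summed value was 4145 to 4482 in WT, 2497 to 2963 in KO and 4706 to 5158 in OE at day 25, and 3210 to 3805, 3117 to 3536 and 4643 to 5198 at day 30. In OE against KO over both days 3 of the 17 were called higher (MKI67 by 1.55, CCNA2 by 1.36 and BUB1 by 1.07), none was called lower, and 14 were higher at an unadjusted p under 0.05. Of all genes, 1.05% were called higher in this comparison and 11.5% were higher at the unadjusted p. Of 17 neural progenitor markers 14 are listed, with summed values of 10482 to 15978, 5717 to 8289 and 8589 to 10941 in WT, KO and OE at day 25, and of 8494 to 9870, 7045 to 9528 and 8681 to 9045 at day 30. SOX2 was the one called higher in OE than in KO (1.27, SE 0.29, limma adjusted p = 0.043), and TNC the one called between OE and WT, where it was lower. The median difference was 0.66 for the progenitor list and 0.70 for the cell cycle list in OE against KO, and -0.58 and -0.43 in KO against WT. The part of cell composition in the differences of NOTCH1, NOTCH3, JAG1 and HES6 was not tested.

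**Figure D5:**
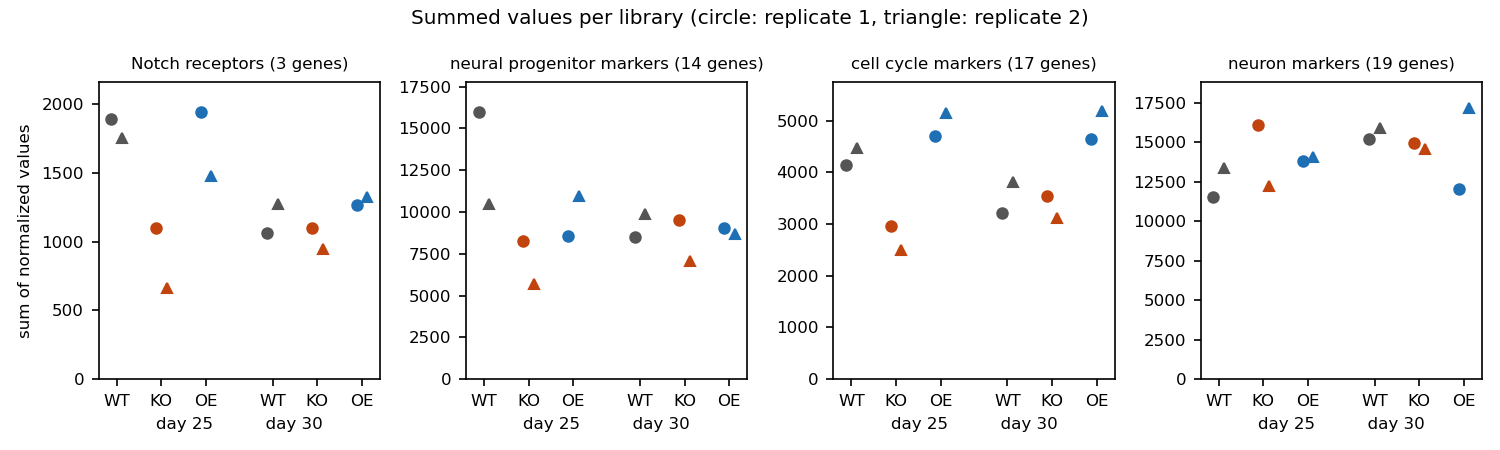
Sum of normalized values per library for NOTCH1, NOTCH2 and NOTCH3 together, for 14 neural progenitor markers, for 17 cell cycle markers and for 19 neuron markers, by labelled genotype and day. At day 25 the receptor sum was 660 to 1098 in KO, 1751 to 1891 in WT and 1480 to 1940 in OE, and the progenitor and cell cycle sums were also lowest in KO.

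At day 30 the receptor sum was 1064 to 1272 in WT, 949 to 1098 in KO and 1269 to 1322 in OE, so the ranges of the 3 genotypes lay closer together. Neuron markers, of which 19 of 20 are listed, summed to 11533 to 13373 in WT, 12201 to 16064 in KO and 13832 to 14084 in OE at day 25, and to 15230 to 15886, 14586 to 14971 and 12030 to 17162 at day 30. In OE against KO over both days 1 was called higher (CNTN2, an adhesion molecule of outgrowing axons, by 1.51) and 1 lower (SYT4, a vesicle protein, by -1.35). SYT4 was also called lower in OE than in WT over both days, with 1332 to 2400 in WT, 1214 to 1606 in KO and 480 to 640 in OE. GAP43 was called lower in OE than in KO at day 25. Thalamic and diencephalic markers were listed for 6 of 16, including TCF7L2, LHX9 and IRX3. None was called between genotypes over both days, and their sums spanned 1042 to 1338 in KO, 1087 to 1993 in OE and 1109 to 1350 in WT at day 25. Roof plate and choroid plexus markers were listed for 17 of 20. Over both days 2 were called higher in OE than in KO (WNT8B and RSPO2) and 3 lower (LMX1B, MSX1 and CLDN1). Of all 9497 genes, 100 were called higher and 111 lower in that comparison. No telencephalic, mid- and hindbrain or endothelial marker of lists of 10, 10 and 7 genes is listed. Of 14 mesenchyme and neural crest markers 4 are listed (COL1A2, PDGFRA, PDGFRB and TFAP2B). Their sum was 476 to 547 in WT, 579 to 1162 in KO and 262 to 411 in OE at day 25, and 353 to 474, 517 to 622 and 244 to 514 at day 30. PDGFRB, which mural cells share with NOTCH3, was 96 and 246 in KO and 133 and 76 in OE at day 25 and overlapped between them. The part of such cells in the values of NOTCH3 was not tested.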

How the data were processed

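RNA-seq libraries (12) of H1-derived ThOs (6 groups of 2, 3 pooled ThOs each) were used; 11 ATAC-seq and CUT&Tag samples were left out. As deposited by the authors, each library has its own table with a normalized expression score rounded to whole numbers for 9497 genes. The method is not given in the sources used here. The submitters' processing notes name bcl2fastq, RSEM, Bowtie2 and hg19, but table positions are on GRCh38: all 9386 symbols matched in RefSeq GRCh38.p14 overlapped. The same lowest value, median and highest value (11, 106 and 9910) and only 687 to 690 distinct values recur in all tables, a pattern that quantile normalization leaves. Such a step removes global shifts, depth is unknown, and levels were not compared between genes. No tables were identical, and 0 other sample columns were present.

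Because the scores are not counts, no count model was used. One limma 3.58.1 model (R 4.3.3) with a mean per group was fitted to log2(value + 1) of all 12 libraries, with an intensity trend, 6 residual and 5.29 prior degrees of freedom. Tests were two-sided, with Benjamini-Hochberg adjustment over 9497 genes; fold changes on this scale slightly understate those of low genes. Calls needed an adjusted p under 0.05 and 2-fold, and differences between days at the adjusted p alone. The limma steps were tested on simulated data. Named genes were the 10 Notch genes, JUN, called genes of the pathway and proneural lists (at most 4 per list and comparison), marker examples and the 3 nearest genes per member. TNC, NOTCH2NLA and PDGFRB were named after their values were seen. The members and lists were chosen with earlier results of these data known. Alternatives were the pseudocount, a filter on low values, quantile normalization, the replicate block, library weights, no trend, fits to the compared libraries alone, other thresholds, and leaving out 1 library at a time. Leaving out both KO replicate 2 libraries was added after seeing the data, for the Notch genes and not for the list genes. It leaves 1 KO library per day, so the spread in those fits comes from WT and OE alone.

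Replicate numbers recur in all groups. Deviations of same-numbered libraries correlated at -0.21 to 0.26 over 15 group pairs, 1 of them above 0.1 (WT and OE of day 30). Such correlations cannot exclude batches shared by same-numbered libraries. The main model left the replicate number out, and 1 alternative used it as a block.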

Additional observations from a re-analysis of the deposited data

Results flagged for a closer look

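HEY1 had opposite differences between KO and WT on the 2 days, with no overlap of the libraries on either. At day 25 KO (20 and 24) lay below WT (50 and 31), a log2 difference of -0.82 (SE 0.41). At day 30 KO (34 and 36) lay above WT (30 and 33), a log2 difference of 0.15 (SE 0.41). The difference between the days was 0.97 (SE 0.58, limma adjusted p = 0.80) and did not pass, so opposite directions are not shown by the test. HEY1 is a low value on the scale of these tables, where the lowest is 11.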

How the results depend on the processing

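The call of HES6 in OE against KO over both days held under every alternative but 2: only the libraries compared (1.72, limma adjusted p = 0.055) and without OE day 30 replicate 2 (1.60, adjusted p = 0.051). With only the libraries compared 0 members were called in that comparison. With the replicate block, library weights or no intensity trend, 1 member was called there (HES6), NOTCH3 losing its call at limma adjusted p = 0.0556, 0.0873 and 0.0786. With both KO replicate 2 libraries left out, the differences there were 1.47 for HES6 and 0.62 for NOTCH3. HES6 in OE against WT over both days was lost with the replicate block (0.0825) and with no trend (0.11), leaving 0 members called, but kept with library weights (0.000996) and with only the libraries compared (0.00515). HES6 at day 30 crossed the threshold in OE against KO, giving 1 call, with a pseudocount of 5, a mean value of at least 50 or quantile normalization, and in OE against WT, giving 1 call, with library weights. The replicate block changed no other call of a member.

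At an unadjusted p under 0.05 and 2-fold, the number of members called was 2 in KO against WT at day 25, 1 over both days, 5 (day 25), 3 (day 30) and 4 (both days) in OE against KO, 1 and 1 in OE against WT at day 25 and day 30, and 1 (NOTCH3) for the KO difference between days, by p alone. The shares of all genes that passed in these 8 comparisons, in this order, were 5.31%, 2.08%, 8.57%, 5.38%, 4.98%, 1.57%, 1.44% and 5.63%. Without both KO replicate 2 libraries, calls changed for HES1 at day 25, in KO against WT and in OE against KO, and between days in KO. That of HES6 changed in OE against KO at day 25. Those fits hold 1 KO library per day, so these calls are not read as results. The day 30 differences of KO from WT reversed there to 0.34 for NOTCH1, 0.081 for NOTCH3, 0.20 for JAG1 and 0.15 for HES1. HEY1 in OE against KO, near 0 throughout, reversed there at day 25 (0.11) and over both days with quantile normalization (-0.042).

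Leaving out 1 library changed the number of members called in KO against WT and in OE against KO, at each day and over both days. It also changed in OE against WT over both days and between days in KO. Most members were called without KO day 30 replicate 1, which leaves replicate 2 as the lone KO library of that day. That library is then assumed to vary like the other groups, and the numbers called are not read as results about Notch genes. Differences that changed sign were, in KO against WT at day 30, NOTCH1 (-1.93 to 0.34), NOTCH2 (-0.55 to 0.31), NOTCH3 (-0.48 to 0.081), JAG1 (-2.24 to 0.20) and HES1 (-0.89 to 0.15), and at day 25 HES6 (-0.025 to 0.16). In OE against KO they were NOTCH2 at day 25 (-0.17 to 0.79) and over both days (-0.41 to 0.066), HES1 at day 30 (-0.70 to 0.34), and HEY1 at day 25 (-0.52 to 0.48), day 30 (-0.17 to 0.26) and over both days (-0.24 to 0.26). Of 574 values of single genes under alternatives that kept every library or dropped both KO replicate 2 libraries, 541 kept direction and side of the threshold. The cause of these changes was not tested. Count models and their normalizations were not run, since the values are not counts. With 2 libraries a group and unknown depth, only large differences could pass.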
